A study of Homo sapiens with 10 samples.

Results

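Stress granules and P-bodies are cytoplasmic assemblies of mRNA and protein that hold or degrade mRNAs not being translated. For 10 genes of these assemblies, levels were examined across 4 RNA pools of a megakaryoblastic cell line. They are the stress granule nucleators G3BP1, G3BP2 and CAPRIN1, the RNA-binding proteins TIA1 and TIAL1, the fragile X family proteins FMR1 and FXR1, and the decapping proteins DCP2, DCP1A and EDC4. The genes were taken by name, and all 23 of their probes were found by platform gene symbol among 47323 probes on the array. Of these, 19 probes for 8 of the 10 genes were above background on at least 2 of the 10 arrays, among 26768 such probes for 13844 named genes.

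Stress granules form when initiation stalls, typically after stress kinases phosphorylate eIF2, and G3BP proteins gather the stalled mRNPs by binding RNA, CAPRIN1 and one another. P-bodies hold the decapping machinery, in which DCP2 cuts off the mRNA cap and DCP1A and EDC4 activate it. ATXN2, the gene depleted in this study, encodes a partner of poly(A)-binding protein that is itself a stress granule component.

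Meg01 cells, a human megakaryoblastic leukaemia line, were transduced at a multiplicity of infection of 10 with the ATXN2 hairpin sh95 or with the control hairpin shc002, so that controls also carried lentivirus and GFP. GFP-positive cells were sorted after 48 hours and their lysates separated on sucrose gradients, whose fractions 1 to 8 were pooled as subpolysomal RNA and fractions 9 to 17 as polysomal RNA (the series text counts 8 fractions there). There were 3 sh95 and 3 shc002 arrays of polysomal RNA (P2, P4 and P5) and 2 sh95 and 2 shc002 arrays of subpolysomal RNA (P1 and P3). The pools share no P number, so pool and P number cannot be told apart. The labels speak of 3 independent experiments without saying which number belongs to which, and the p-values measure the spread between these arrays, which may be partly technical.

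Levels below are log2 intensities, quantile-normalised over the 10 arrays, and differences are log2 differences from a limma model of the 4 group means with their standard error (SE). A probe was called where its p, adjusted by Benjamini-Hochberg over all 26768 probes, was under 0.05. Quantile normalisation makes each value relative to the other probes, so the arrays cannot give the share of an mRNA on polysomes. In these bulk pools fewer cells holding an mRNA and less of it per cell cannot be told apart either. ATXN2 itself averaged 8.67 ± 0.03 on sh95 and 9.88 ± 0.82 on shc002 polysomal arrays (SD, n = 3 each), and every sh95 array read below its shc002 partner. Its limma unadjusted p was 0.0155 in polysomal and 0.146 in subpolysomal RNA. ATXN2 was called in neither pool, so a difference of that size can go uncalled here. The polysomal shc002 array of P2 stood apart in its highest intensity, 140375 against 11164 to 38625 on the other arrays. The sh95 array of P2, at 12107, did not. Values without both P2 arrays, a choice made after seeing the data, are given beside several results. Of 6 megakaryocyte markers ITGA2B and GP1BA were above background on all 10 arrays, GP9 and TUBB1 on 8, ITGB3 on 4 and PF4 on 0. The fetal globin HBG1, an erythroid gene, read 13.85 to 14.48.

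No member was called in any comparison, and for all 8 measured mRNAs the confidence interval of the difference with ATXN2 knockdown included 0 in both pools when arrays were not paired. In the fit with P number as a block, which pairs the arrays, FXR1 in subpolysomal RNA stood at 0.30 with an SE of 0.09 (SE 0.79 without the block), a limma unadjusted p of 0.0228 and an adjusted p of 1.0. The clearest separations were between pools. The brightest G3BP2 probe read higher on all 6 polysomal arrays than on all 4 subpolysomal arrays. The difference was about 2.19-fold in sh95 and 2.0-fold in shc002 cells (limma adjusted p 0.104 and 0.232). The dimmer G3BP2 probes overlapped between pools. EDC4 was separated likewise, at 1.49- and 1.5-fold (limma adjusted p 0.643 and 0.853), its narrowest gap being 8.18 against 8.15. Such a separation occurred for 2.27% of all probes. FXR1, TIAL1 and CAPRIN1 read lower in polysomal than in subpolysomal RNA on the group means of their brightest probes, within wide intervals. FXR1 and TIAL1 differed more between P3 and P1, and between P4 and P2, than between hairpins within a pair.

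**Figure D1:**
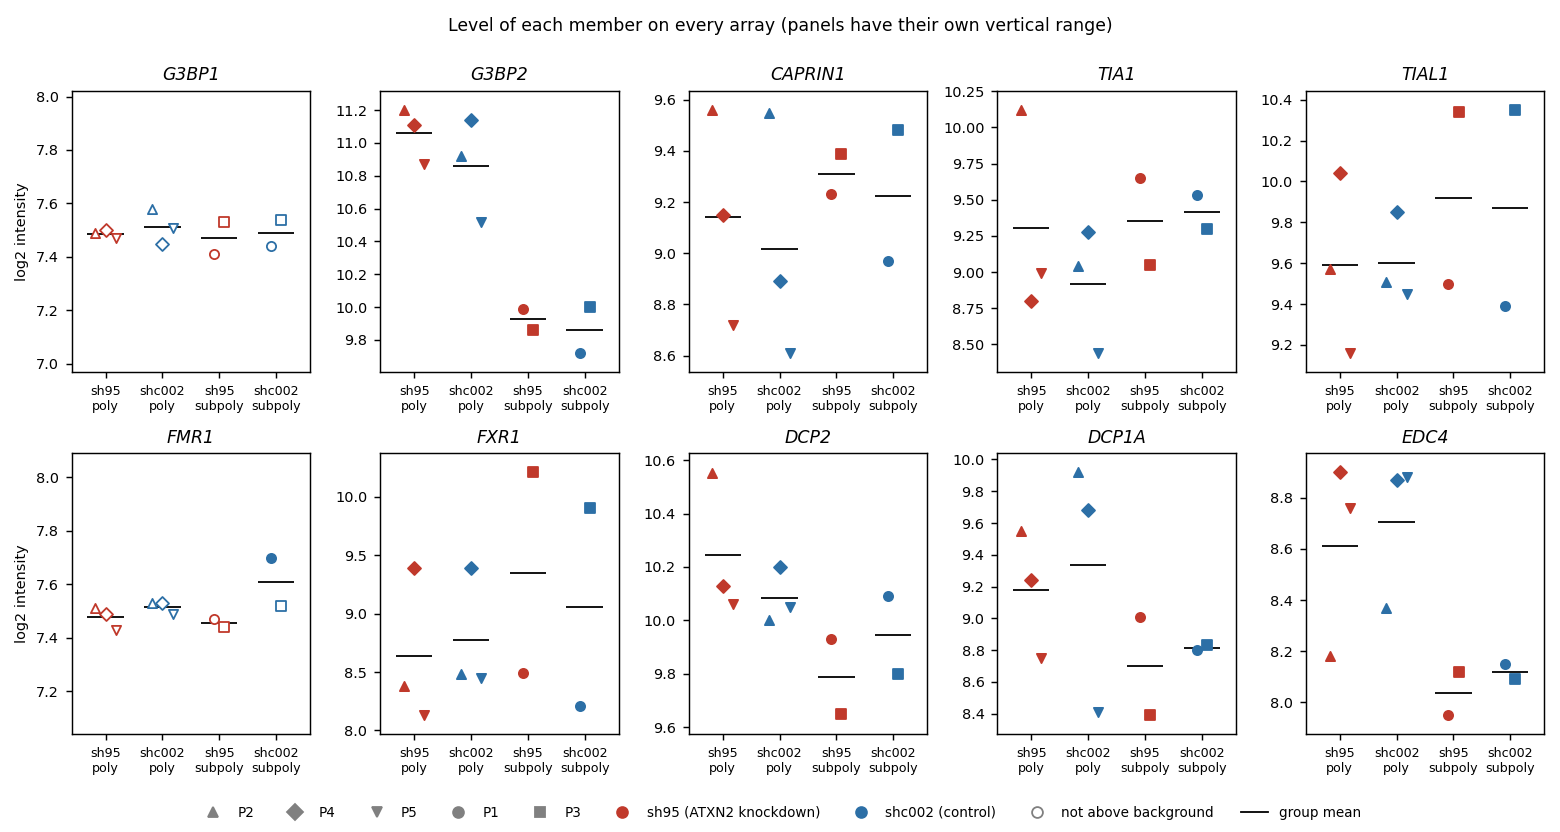
Log2 intensity of the 10 members on every array, for the brightest probe above background of each gene (for G3BP1 and FMR1 the brightest probe of all), with sh95 in red, shc002 in blue, open symbols for arrays where the probe was not above background and a bar for the group mean. G3BP2 and EDC4 are the panels in which all 6 polysomal points lie above all 4 subpolysomal points, while G3BP1 and FMR1 stay at the array floor.

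Among the nucleators G3BP1, the principal stress granule scaffold in human cells, could not be followed. Its 2 probes read 7.41 to 7.58 and 7.40 to 7.57 and were above background on 0 of 10 arrays, so no fold is given. This is a limit of these probes and gives no statement on the level of the G3BP1 mRNA.

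G3BP2, the paralogue that can replace G3BP1 in granule assembly, was measured by 3 of its 4 probes. In polysomal RNA its brightest probe read 11.20 (P2), 11.11 (P4) and 10.87 (P5) on sh95 arrays, against 10.92, 11.14 and 10.52 on shc002 arrays. In subpolysomal RNA it read 9.99 (P1) and 9.86 (P3) on sh95 arrays, against 9.72 and 10.00 on shc002 arrays. The 2 hairpins overlapped in both pools, while the pools did not overlap at all.

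CAPRIN1, which binds G3BP proteins and promotes granule assembly, had 3 measured probes. Its brightest probe read 9.56, 9.15 and 8.72 on sh95 polysomal arrays P2, P4 and P5, against 9.55, 8.89 and 8.61 on the shc002 arrays. In subpolysomal RNA the sh95 arrays read 9.23 (P1) and 9.39 (P3), against 8.97 and 9.48 on shc002 arrays. All 4 groups overlapped, and the polysomal arrays of both hairpins were highest in P2.

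TIA1 and TIAL1 are paralogous RNA-binding proteins with self-associating tails that repress translation of their targets under stress. In polysomal RNA the brightest TIA1 probe read 10.12 (P2), 8.80 (P4) and 8.99 (P5) on sh95 arrays, against 9.04, 9.28 and 8.44 on shc002 arrays. Its subpolysomal sh95 arrays read 9.65 (P1) and 9.05 (P3), against 9.53 and 9.30 on shc002 arrays. The sh95 array of P2 was the highest of all 10, and the groups overlapped.

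The brightest TIAL1 probe read 9.57, 10.04 and 9.16 on sh95 polysomal arrays P2, P4 and P5, against 9.51, 9.85 and 9.45 on shc002 arrays. In subpolysomal RNA it read 9.50 (P1) and 10.34 (P3) on sh95 arrays, against 9.39 and 10.35 on shc002 arrays. Both hairpins followed the P number, with P3 high and P1 low.

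FMR1, the fragile X protein gene whose product binds ribosomes and represses translation, had 1 probe, which exceeded background on 1 of 10 arrays, at 7.70 on the subpolysomal shc002 array of P1. The other 9 arrays read 7.43 to 7.53, and no fold is given. Its relative FXR1 was measured by 3 probes.

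FXR1 had the widest spread among the members' brightest probes. On polysomal arrays P2, P4 and P5 it read 8.38, 9.39 and 8.13 with sh95, against 8.48, 9.39 and 8.45 with shc002. On subpolysomal arrays P1 and P3 it read 8.49 and 10.21 with sh95, against 8.21 and 9.90 with shc002. The difference of P3 from P1 was 1.73 in sh95 and 1.69 in shc002 cells, while the pair differences between hairpins were at most 0.32 in size.

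The decapping genes had 1 probe each. DCP2, the catalytic subunit, read 10.55, 10.13 and 10.06 on sh95 polysomal arrays P2, P4 and P5, against 10.00, 10.20 and 10.05 on shc002 arrays. Its subpolysomal values were 9.93 (P1) and 9.65 (P3) on sh95 arrays, against 10.09 and 9.80 on shc002 arrays. Over all 10 arrays the pools overlapped. The change of their difference with sh95 was 0.32 (SE 0.24), and 0.13 without the P2 arrays.

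DCP1A, the DCP2 activator, read 9.55, 9.24 and 8.75 on sh95 polysomal arrays P2, P4 and P5, against 9.92, 9.68 and 8.41 on shc002 arrays. Its subpolysomal values were 9.01 (P1) and 8.39 (P3) with sh95, against 8.80 and 8.83 with shc002. The P5 arrays fell within the subpolysomal range and the P2 and P4 arrays above it.

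EDC4, the large scaffold that joins DCP1A and DCP2, read 8.18, 8.90 and 8.76 on sh95 polysomal arrays P2, P4 and P5, against 8.37, 8.87 and 8.88 on shc002 arrays. In subpolysomal RNA it read 7.95 (P1) and 8.12 (P3) with sh95, against 8.15 and 8.09 with shc002. Every polysomal array was above every subpolysomal one, the narrowest gap being 8.18 against 8.15.

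The first question of the design is whether ATXN2 depletion changes these mRNAs within a pool. In polysomal RNA 0 of 8 members were called, against 0% of all probes called by limma. An unadjusted p under 0.05 was found for 0 of the 19 member probes and for 417 of all probes. With P number as a block it was found for 1656 of all probes. The lowest unadjusted p of a member probe was then 0.0516, for a dimmer CAPRIN1 probe. Of the members 4 stood above 0 and 4 below, and the median over members was 0.06, beside 0.01 over all 13844 genes, and -0.04 without the P2 arrays. TIA1 had the highest difference at 0.38 (SE 0.39, 95% confidence interval -0.54 to 1.30), followed by G3BP2 at 0.20 (SE 0.17, -0.21 to 0.60), DCP2 at 0.17 (SE 0.15, -0.20 to 0.53) and CAPRIN1 at 0.13 (SE 0.30, -0.59 to 0.84). DCP1A stood at -0.16 (SE 0.42, -1.14 to 0.83), FXR1 at -0.14 (SE 0.64, -1.66 to 1.37), EDC4 at -0.09 (SE 0.21, -0.60 to 0.41) and TIAL1 at -0.01 (SE 0.35, -0.84 to 0.81). All intervals include 0, and each adjusted p was 1.0.

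The TIA1 value rested on the P2 arrays, where sh95 minus shc002 was 1.07, against -0.48 in P4 and 0.55 in P5. Without both P2 arrays it was 0.03. Its dimmer probes stood at 0.19 (SE 0.23) and 0.09 (SE 0.12). The DCP2 value also came from P2, at 0.55, against -0.07 in P4 and 0.02 in P5, and was -0.03 without the P2 arrays. G3BP2 turned to -0.05 under median centring and on the authors' own scale, and its 2 dimmer probes stood at -0.09 and -0.20.

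In subpolysomal RNA 0 of 8 members were called, against 0% of all probes. Without a block limma had 241 probes and none of the members' at an unadjusted p under 0.05. With P number as a block it had 586, among them the brightest FXR1 probe (limma unadjusted p 0.0228). The median over members was -0.01, with 4 above and 4 below 0, beside a median of 0.00 over all probes. FXR1 stood at 0.30 (SE 0.79, 95% confidence interval -1.56 to 2.16), CAPRIN1 at 0.09 (SE 0.37), G3BP2 at 0.07 (SE 0.21) and TIAL1 at 0.05 (SE 0.43). DCP2 stood at -0.16 (SE 0.19, -0.60 to 0.29), DCP1A at -0.12 (SE 0.51), EDC4 at -0.08 (SE 0.26) and TIA1 at -0.06 (SE 0.48). DCP2 read 0.16 lower with sh95 in both pairs, and FXR1 read higher in both, by 0.28 in P1 and 0.32 in P3. For G3BP2, CAPRIN1, TIA1, TIAL1, DCP1A and EDC4 the 2 pairs pointed opposite ways.

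**Figure D2:**
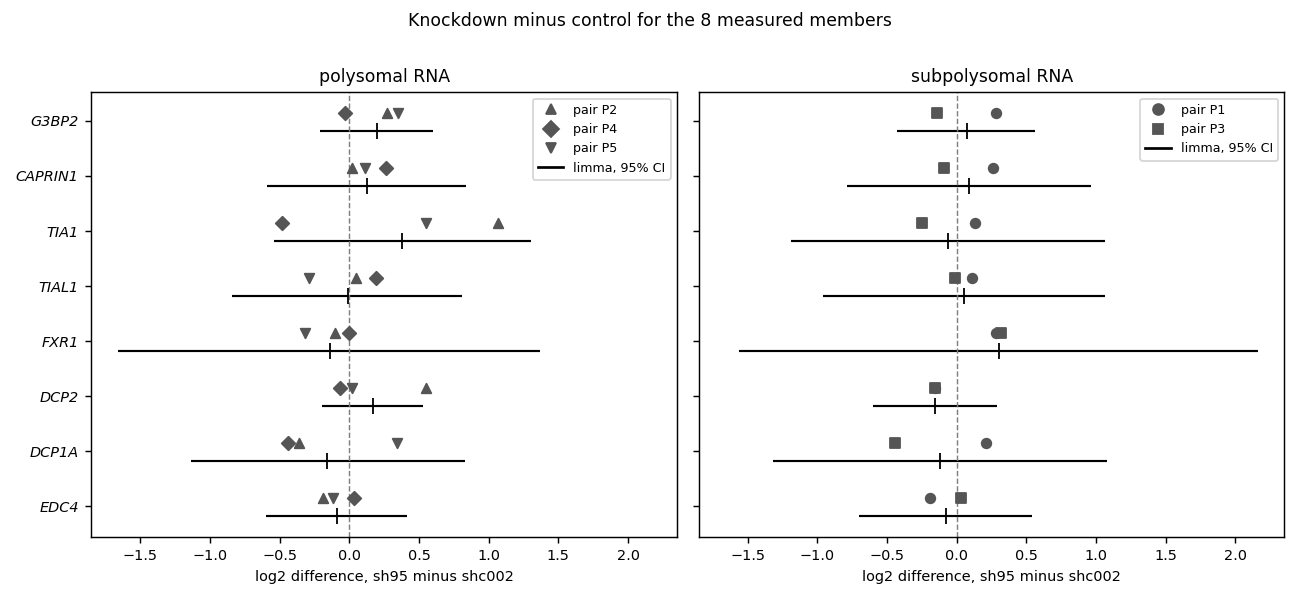
Log2 difference of sh95 minus shc002 for the 8 measured members, as symbols for each pair of arrays with the same P number and as a bar for the limma estimate with its 95% confidence interval, in polysomal RNA (left) and subpolysomal RNA (right). The intervals are from the fit that does not pair the arrays. All 16 include 0, and the P2 symbol of TIA1 at 1.07 is the farthest from 0.

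By pair the brightest probes of the members did not share a direction. Counted as sh95 above shc002, 6 of 8 members were higher in P1, 2 in P3, 5 in P2, 3 in P4 and 5 in P5, with medians of 0.17, -0.12, 0.04, -0.02 and 0.06. On its brightest probe CAPRIN1 was higher with sh95 in 4 of 5 pairs, by at most 0.26, and on the next probe in 3 of 5. A dimmer G3BP2 probe was lower in 5 of 5 pairs, by 0.04 to 0.45, while the brightest was higher in 3 of 5. Averaged over both pools the CAPRIN1 difference was 0.11 (SE 0.24) on its brightest probe. Those of the other members ran from -0.14 (SE 0.33) for DCP1A to 0.16 (SE 0.31) for TIA1. No member was called in the average, against 0% of probes, and the median over the 8 was 0.05.

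The second question is how these mRNAs lie between polysomal and subpolysomal RNA, and here 2 members stood apart without passing the test. G3BP2 read 1.13 higher in polysomal RNA of sh95 cells (SE 0.19, 95% confidence interval 0.68 to 1.58) with a limma adjusted p of 0.104. In shc002 cells it read 1.00 higher (SE 0.19, 0.55 to 1.46) with an adjusted p of 0.232. EDC4 read 0.58 higher in sh95 cells (SE 0.24, adjusted p 0.643) and 0.59 higher in shc002 cells (SE 0.24, adjusted p 0.853). In sh95 cells limma called 0.161% of all probes and in shc002 cells 0.127%, and 0 of 8 members in either. The complete separation of the pools seen for G3BP2 and EDC4, with polysomal above subpolysomal, occurred for 2.27% of all probes. The opposite one, found for 0 members, occurred for 3.20%. These shares count probes. By probe the separation held for the brightest G3BP2 probe and the EDC4 probe among 19 member probes, and the dimmer G3BP2 probes overlapped between pools.

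The other decapping genes pointed the same way as EDC4. DCP1A stood at 0.48 (SE 0.47) in sh95 and 0.52 (SE 0.47) in shc002 cells, and DCP2 at 0.46 (SE 0.17, adjusted p 0.580) and 0.13 (SE 0.17). Without the P2 arrays DCP1A stood at 0.29 and 0.23 and DCP2 at 0.31 and 0.17. The remaining members stood below 0 on their brightest probes. FXR1 read -0.72 (SE 0.72) in sh95 and -0.28 (SE 0.72) in shc002 cells, TIAL1 -0.33 (SE 0.39) and -0.26 (SE 0.39), and CAPRIN1 -0.17 (SE 0.34) and -0.21 (SE 0.34). TIA1 read -0.05 (SE 0.43, but 0.02 under median centring and on the authors' own scale) in sh95 and -0.49 (SE 0.43) in shc002 cells. Without the P2 arrays TIA1 stood at -0.46 in sh95 and -0.56 in shc002 cells. The median over members was 0.20 in sh95 and -0.04 in shc002 cells, beside 0.03 and 0.01 over all genes. The sh95 median was -0.01 without the P2 arrays and ran from -0.01 to 0.37 with 1 array left out. The shc002 median was 0.37 without the subpolysomal shc002 array of P3.

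The G3BP2 difference was not equal on all its probes. The dimmer ones read 0.27 (SE 0.45) and 0.24 (SE 0.41) higher in polysomal RNA of sh95 cells, and 0.34 (SE 0.45) and 0.38 (SE 0.41) higher in shc002 cells. On these probes the polysomal arrays of P2, at 7.79 to 7.86, lay within the subpolysomal range. The sh95 polysomal array of P5, at 8.01 and 7.88, did so too. With all kept G3BP2 probes averaged the difference was 0.55 in sh95 and 0.57 in shc002 cells. For FXR1 the probe next in brightness stood at -0.02 (SE 0.60) in sh95 and 0.32 (SE 0.60) in shc002 cells, where the brightest probe had the opposite sign. With 1 array left out the brightest FXR1 probe ran from -1.58 to 0.14 in sh95 and from -1.12 to 0.57 in shc002 cells, TIAL1 from -0.74 to 0.09 and from -0.74 to 0.21, and CAPRIN1 from -0.38 to 0.05 and from -0.47 to 0.05. TIA1 in sh95 cells ran from -0.46 to 0.25 and DCP2 in shc002 cells from -0.01 to 0.28. All these directions turned with a single array.

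**Figure D3:**
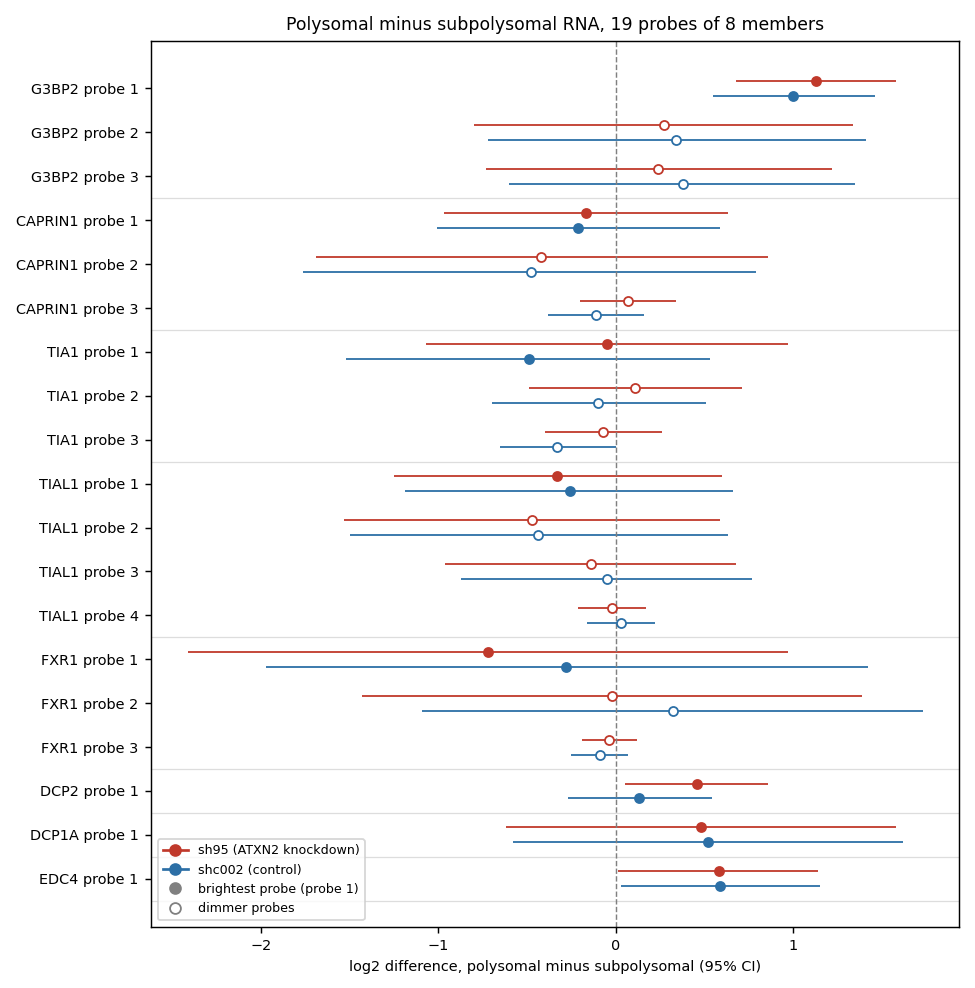
Log2 difference of polysomal minus subpolysomal RNA with its 95% confidence interval for the 19 measured probes, in sh95 cells (red) and shc002 cells (blue), with filled symbols for the brightest probe of each gene. Only the brightest G3BP2 probe and the EDC4 probe have intervals above 0 in both cell groups, and the dimmer G3BP2 probes include 0.

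The third question is whether ATXN2 depletion changes that difference between pools. No member was called, against 0% of probes called by limma and 307 at an unadjusted p under 0.05, none of them a member's. With P number as a block 974 probes were under 0.05, among them the brightest FXR1 probe (limma unadjusted p 0.0141). TIA1 stood at 0.44 (SE 0.61), DCP2 at 0.32 (SE 0.24, 95% confidence interval -0.25 to 0.90), G3BP2 at 0.13 (SE 0.27, -0.51 to 0.77) and CAPRIN1 at 0.04 (SE 0.48). EDC4 stood at -0.01 (SE 0.34, -0.81 to 0.78), DCP1A at -0.04 (SE 0.66), TIAL1 at -0.06 (SE 0.55) and FXR1 at -0.44 (SE 1.02). Under median centring and on the authors' own scale G3BP2 stood at -0.17. Without the P2 arrays TIA1 stood at 0.10 and DCP2 at 0.13. The median over members was 0.02, and 0.29 without the subpolysomal shc002 array of P1.

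Probes of 1 gene sometimes ran opposite ways across P numbers while both hairpins ran together. For TIAL1 the difference of P3 from P1 was 0.84 in sh95 and 0.96 in shc002 cells on the brightest probe, and 1.01 and 1.21 on the next, which the platform assigns to the same RefSeq transcript. On the third probe, assigned to another TIAL1 transcript, it was -0.73 and -0.79. The difference of P4 from P2 had the same split, at 0.48 and 0.34 on the brightest probe against -0.79 and -0.44 on the third. For CAPRIN1 the difference of P4 from P2 was -0.41 in sh95 and -0.65 in shc002 cells on the brightest probe. It was 0.95 and 0.87 on the next, which the platform assigns to another CAPRIN1 transcript. Between P3 and P1 these probes ran the same way, at 0.16 and 0.52 on the brightest and 1.41 and 1.02 on the next. These differences are between arrays of different P number within a pool and were given no test.

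**Figure D4:**
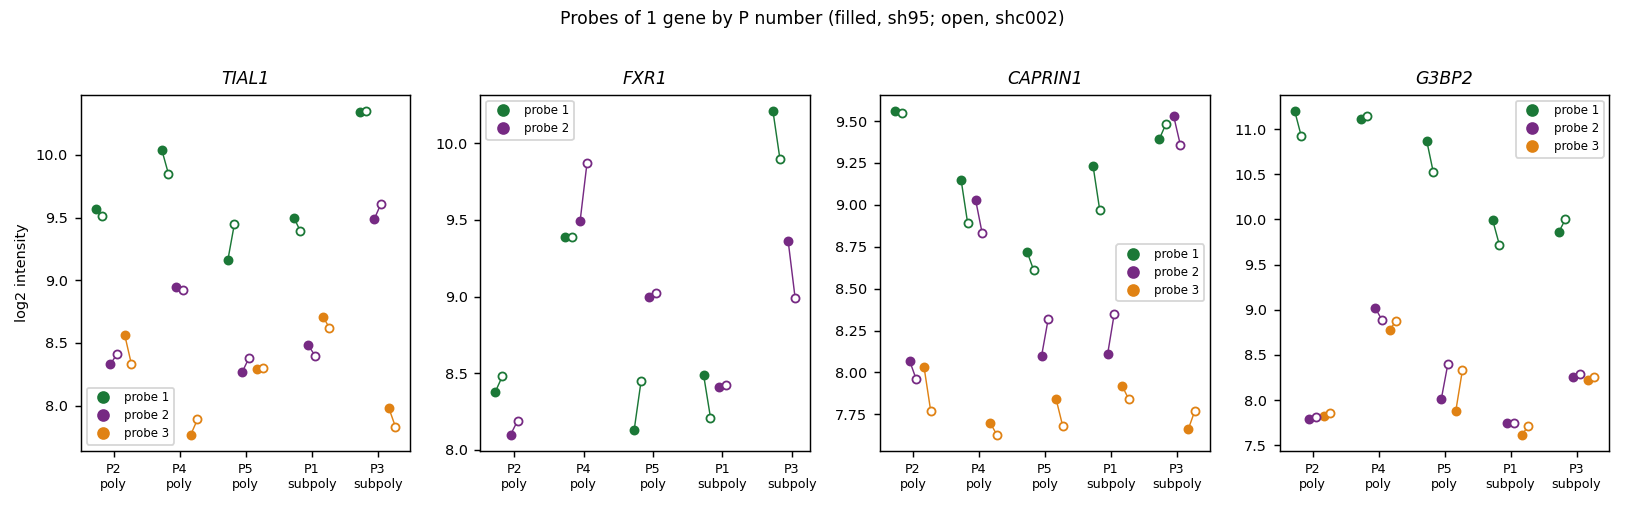
Log2 intensity of the probes of TIAL1, FXR1, CAPRIN1 and G3BP2 that were above background on at least 9 arrays, by P number, with sh95 as filled and shc002 as open symbols joined within a pair. For FXR1 and TIAL1 joined symbols lie closer together than P3 lies to P1, and the TIAL1 probe 3 is low in P3 and P4, where probes 1 and 2 are high.

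Other genes of the same assemblies were followed as 3 lists. Of 42 further stress granule genes 36 were measured, and limma called 0 higher and 0 lower with knockdown in polysomal or in subpolysomal RNA. In polysomal RNA 24 of the 36 stood above 0, with a median of 0.09 beside 0.01 over all genes, of which 56.1% were above 0. IGF2BP3, an RNA-binding protein that stabilises its targets, read 9.22, 9.25 and 9.46 on sh95 polysomal arrays P2, P4 and P5, against 8.19, 8.85 and 8.61 on shc002 arrays. The difference was 0.76 (SE 0.30, limma adjusted p 1.0). With P number as a block the IGF2BP3 SE was 0.17, with a limma unadjusted p of 0.00743 and an adjusted p of 0.77. PUM2, a Pumilio repressor, stood at 0.51 (SE 0.24), IGF2BP2 at -0.12 (SE 0.08) and ATXN2 at -1.21 (SE 0.38). In subpolysomal RNA IGF2BP3 stood at 0.45 (SE 0.36), IGF2BP2 at 0.11 (SE 0.10), IGF2BP1 at -0.08 (SE 0.09) and ATXN2 at -0.76 (SE 0.47).

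Between pools the stress granule list held genes on the side opposite to G3BP2. The cold shock domain protein YBX1 read 9.69, 11.21 and 10.61 on polysomal sh95 arrays and 9.65, 11.05 and 11.18 on polysomal shc002 arrays. Its subpolysomal arrays read 12.98 and 13.32 with sh95 and 13.19 and 13.40 with shc002. The differences were -2.65 (SE 0.56, adjusted p 0.199) in sh95 and -2.67 (SE 0.56, adjusted p 0.272) in shc002 cells. The poly(A)-binding protein PABPC1 stood at -1.77 (SE 0.55) in both. YBX1, PABPC1, PABPC4 and TARDBP, 4 of 36 genes, had all polysomal arrays below all subpolysomal arrays, and 0 of 36 the reverse. Over all probes the shares were 3.20% and 2.27% (PABPC4 and TARDBP are named after their values were seen). The TARDBP separation was small, with polysomal arrays near background and a narrowest gap of 7.71 against 7.73. Its differences were -0.15 (SE 0.07) in sh95 and -0.2 (SE 0.07) in shc002 cells. On the higher side in shc002 cells were ZC3HAV1, an antiviral RNA-binding protein, at 0.79 (SE 0.53) and IGF2BP2 at 0.17 (SE 0.09).

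Of 31 further P-body genes 30 were measured, and limma called 0 of them in any comparison. DDX6, the helicase central to P-body assembly, had no probe above background on 2 arrays. In polysomal RNA the median with knockdown was 0.02, and 17 of 30 stood above 0. EIF4ENIF1, which carries eIF4E into P-bodies, stood at 0.29 (SE 0.12) and GIGYF2, part of a cap-binding repressor complex, at 0.21 (SE 0.12). AGO2, the slicing Argonaute, stood at -0.32 (SE 0.58) and ZFP36, which binds AU-rich elements, at -0.51 (SE 0.59). With P number as a block these SEs were 0.09, 0.07, 0.07 and 0.19. The limma unadjusted p was then 0.0316, 0.0295, 0.00673 and 0.0494, and the adjusted p 0.77 for each. In subpolysomal RNA LSM14A, a P-body scaffold, stood at 0.58 (SE 0.66) and the microRNA effector TNRC6B at 0.14 (SE 0.15). ZFP36L2, a relative of ZFP36, stood at -0.16 (SE 0.18) and UPF1, the helicase of nonsense-mediated decay, at -0.27 (SE 0.47). With the block these SEs were 0.23, 0.06, 0.12 and 0.17, and the lowest limma unadjusted p was 0.0548, for LSM14A.

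TNRC6B was the P-body gene with the smallest p between pools in shc002 cells. Its polysomal arrays read 8.35 to 8.66 with sh95 and 8.32 to 8.62 with shc002, and its subpolysomal arrays 7.79 and 8.06 with sh95 and 7.74 and 7.84 with shc002. The differences were 0.53 (SE 0.14, adjusted p 0.347) and 0.65 (SE 0.14, adjusted p 0.296). AGO3, an Argonaute protein, stood at 0.35 (SE 0.11) and 0.30 (SE 0.11). By brightest probe TNRC6B and AGO3, 2 of the 30 genes, had all polysomal arrays above all subpolysomal ones, as did 2.27% of all probes. The Sm-like decay factors LSM4 and LSM3 stood at -1.38 (SE 0.67) and -0.77 (SE 0.41) in shc002 cells.

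The eIF2 kinases and the regulatory subunits of the eIF2 phosphatase, which set when stress granules form, were measured for 6 of 6 genes, with 0 called by limma in any comparison. In polysomal RNA with knockdown the haem-regulated kinase EIF2AK1 stood at 0.46 (SE 0.43) and the endoplasmic reticulum kinase EIF2AK3 at 0.19 (SE 0.09). PPP1R15B stood at -0.05 (SE 0.13) and the double-stranded RNA kinase EIF2AK2 at -0.25 (SE 0.29). With P number as a block these SEs were 0.29, 0.10, 0.07 and 0.06. EIF2AK2 then had a limma unadjusted p of 0.0127 and an adjusted p of 0.77. In subpolysomal RNA PPP1R15B, EIF2AK4, EIF2AK3 and EIF2AK1 stood between -0.33 and 0.06. Between pools in shc002 cells EIF2AK4, the amino acid sensing kinase, stood at 0.21 (SE 0.21) and PPP1R15B at 0.16 (SE 0.15). PPP1R15A, the stress-induced subunit, stood at -0.42 (SE 0.75) and EIF2AK1 at -0.65 (SE 0.48). EIF2AK3, 1 of the 6, had all polysomal arrays above all subpolysomal ones, as did 2.27% of all probes, with the pools meeting at 7.69. Its subpolysomal arrays read 7.61 to 7.69, near background. The difference between pools was 0.31 (SE 0.10) in sh95 but 0.09 (SE 0.10) in shc002 cells.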

How the data were processed

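Illumina beadchip arrays (10) of Meg01 RNA pools were analysed, with groups and P numbers from the labels. The deposited intensity values, 47323 probes per array, are linear, with a minimum of 155.4. The sources used here do not state how the authors normalised them. R 2.15 is named in the submitters' processing notes. A table of unnormalised signals has 20 columns whose headings match no sample, and they were not used.

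Intensities were log2-transformed and quantile-normalised. Background was each array's distribution below its mode, mirrored, with the upper tail set at 0.05, and probes above it on at least 2 arrays were kept (56.6%). Symbols were updated by gene identifier to a RefSeq table of GRCh38.p14. On the platform 30113 probes have 1 gene symbol, 8 have several and 17202 have none. All 10 member symbols matched. Each gene is represented by its brightest kept probe. Genome positions are not printed, since no build is named for the array. Tests were limma 3.58.1 (R 4.3.3, lmFit and eBayes), two-sided, on 26768 probes, and the step was tested on simulated data. The number of arrays limits the precision. Named genes are the members, ATXN2 and, per list, the 2 highest and 2 lowest by moderated t in 3 comparisons. Members and lists were chosen with earlier results of these data known.

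Arrays of one P number deviated together (r of 0.467 to 0.917 between sh95 and shc002 deviations from group means), so the numbers were taken to pair the arrays. A fit with P number as a block was an alternative. For knockdown and for the change between pools P number was a fixed term. The pools share no P number, so between them it entered as a correlation of 0.545 within a number and paired no arrays. Others were median centring, the authors' values, other filters, priors, array weights, arrays in the fit, averaged probes and leaving out arrays.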

Additional observations from a re-analysis of the deposited data

Results flagged for a closer look

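The brightest FXR1 probe read lower with sh95 in the polysomal pairs P2 (-0.10) and P5 (-0.32) and equal to 2 decimals in P4 (-0.00). It read higher in both subpolysomal pairs (0.28 in P1 and 0.32 in P3). The change of the difference between pools was -0.44 (SE 1.02, limma adjusted p 1.0 and unadjusted p 0.677). With the replicate block its SE was 0.12, with an unadjusted p of 0.0141 and an adjusted p of 0.935, so the difference did not pass after correction in either fit. The next FXR1 probe did not share the pattern in P1, at -0.01, and its change between pools was -0.34 (SE 0.85). The third, above background on 2 arrays, stood at 0.05 (SE 0.09).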

How the results depend on the processing

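No member was called under any alternative run, and with the replicate block (P number) 0 were called in each of the 6 comparisons, with adjusted p of 0.77 or higher for knockdown in either pool and 0.114 and 0.227 as the lowest between pools in sh95 and shc002 cells. The block changed no member's call. The medians over members moved by less than the spread between arrays (SD 0.252) except when 1 array was left out. They then ran from -0.05 to 0.37 for polysomal against subpolysomal RNA in shc002 cells, and from -0.09 to 0.29 for the change of that difference with knockdown. Of 416 member differences recomputed with all arrays 20 changed sign, and of 528 with arrays left out 77 did. G3BP2 with knockdown in polysomal RNA stood at -0.03 with its probes averaged. ATXN2 stayed lower with sh95 throughout, at -1.56 to -0.76 in polysomal and -1.04 to -0.48 in subpolysomal RNA with 1 array left out. Over all probes the calls between pools depended on the processing. In sh95 cells 43 were called, 31 with the block, 23 with median centring, 24 with the authors' values and 0 under a robust, trended prior or in a fit of just those arrays. In shc002 cells 34 were called, 15 with the block, 17 without a filter or with averaged probes, 4 on probes above background on all arrays, 22 with the authors' values, and 0 under that prior or in such a fit. With 1 array left out the counts ran from 2 to 38 and from 1 to 12, and without both P2 arrays, chosen after seeing the data, they were 6 and 1. The fit of just the arrays compared was not run for the average over pools or the change between them, which use all arrays. Depth is not recorded for arrays, and G3BP1 and FMR1 were limited by signal at background.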
